A study of Mus musculus with 6 samples.

Results

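The genes described here are the enzymes of cholesterol synthesis, the proteins that sense sterols and control the transcription factor SREBP2, carriers of cholesterol, and targets of the liver X receptors (LXR). Their names were listed, and rows of the count files were taken by Ensembl identifier. Of the 29 listed genes, 28 had a row among the 37991 gene rows (Msmo1 under its current name, formerly Sc4mol). Hmgcs1, the synthase at the head of the mevalonate steps, had no matching identifier and was not analysed here. The RNA came from sorted cells of mouse pups aged 3 days that carried a Nestin-GFP signal, taken from dermis together with the subcutaneous white fat below it. The 3 control mice, labelled Nes-GFP+ cells, carried the Nestin-GFP reporter, and the 3 mutant mice carried Nestin-GFP, Nestin-Cre and PDGFRα+/[S]D842V, 1 copy of the receptor gene with a constitutively active change. The controls carried no Nestin-Cre as labelled, so the recombinase and the allele cannot be told apart, and Nestin-Cre acts in any lineage in which the Nestin sequence has been active. The labels' protocols give 6 RNA samples from 6 mice and a sort on GFP with a purity check, and no litter or batch is given in the sources used here.

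Cells make cholesterol from acetyl-CoA through mevalonate, the isoprenoid diphosphates and squalene, which is closed to lanosterol and trimmed to cholesterol. When sterols in the endoplasmic reticulum run low, SCAP carries SREBP2 to the Golgi, where it is cut and released to the nucleus, and it then raises the genes of synthesis and uptake. When sterols are plentiful, INSIG proteins hold SCAP back, and oxysterols bind LXR, which pairs with RXR and raises genes of efflux such as Abca1 and Abcg1. The 2 programmes therefore usually run in opposite directions, which is the contrast made here.

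The receptor gene itself, Pdgfra, stood at 857, 820.0 and 856 CPM (read counts scaled to the size of the library) in controls and at 369, 345 and 359 CPM in mutants. Every mutant library was below every control library in this check of the labels. Gene counts per library ran from 11912469 to 18792939. Pericyte and mural markers were present in every library, with a summed level of 915 to 1161 CPM in controls and 910.3 to 1144 CPM in mutants, although Higd1b lay between 0.576 and 1.58 CPM. Of these 8 markers 2 rose and none fell: the potassium channel gene Kcnj8 (28.4 ± 2.32 CPM in controls, 78.2 ± 13.2 CPM in mutants) and Abcc9, which encodes a regulatory subunit of such channels (66.4 ± 5.82 and 119.6 ± 11.2 CPM). Among the same 8 genes, 4 had a log2 fold change below 0 and 4 above 0. Rgs5, with the highest control mean of the 8, went from 306 ± 96.4 to 185 ± 42.1 CPM. Its groups overlapped, and it was not called (-0.72, edgeR adjusted p = 0.181). Cspg4 also overlapped and was not called (-0.26, edgeR adjusted p = 0.0957). Rgs5 and Cspg4 were named after their values were seen. Markers of several other cell types were higher in mutant libraries. All 8 skeletal muscle markers rose (summed 57.6 to 86.3 CPM in controls, 179 to 275 CPM in mutants), as did 5 of 7 endothelial markers (134 to 163, 232 to 317 CPM), 4 of 6 keratinocyte markers (433 to 691, 811 to 1016 CPM) and 3 of 4 tested mast cell markers (47.7 to 59.2, 88.0 to 113 CPM). The listed mast cell marker Fcer1a had no count in 4 of 6 libraries, which allows up to 0.189 to 0.252 CPM in those libraries for counting error alone. Adipocyte markers summed to 160.4 to 241 CPM in controls and to 279, 592 and 261 CPM in mutant replicates 1 to 3, and 1 of 7 tested rose. Of 8 proliferation markers 4 fell and none rose (1071 to 1153 CPM in controls, 905 to 939 CPM in mutants). Dissociation stress genes summed to 3936 to 6061 CPM in controls and 7147 to 8230 CPM in mutants, with 2 of 7 lower and 1 higher. The part of these shifts in the results on cholesterol genes was not tested. In sorted bulk samples, fewer cells of a type and less RNA per cell cannot be told apart.

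In mutant cells 4 enzyme genes of cholesterol synthesis (Idi1, Lss, Cyp51 and Sc5d), the carrier gene Stard4 and the sterol sensor gene Insig1 fell, and of the LXR targets Abca1 alone rose. A gene was called when edgeR's quasi-likelihood test gave an adjusted p (Benjamini-Hochberg over 15035 tested genes) under 0.05, and log2 fold changes are mutant over control. Of 20 synthesis and transport genes 5 fell, none rose and 15 were not called, against 9.13% of all tested genes called lower and 8.63% called higher. Their median log2 fold change was -0.34, beside 0.01 over all tested genes, and 18 of the 20 had a value below 0. In 9 of the 20 every mutant library was below every control library, which held for 18.6% of all tested genes. All 28 genes with a row passed the filter on low counts.

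**Figure D1:**
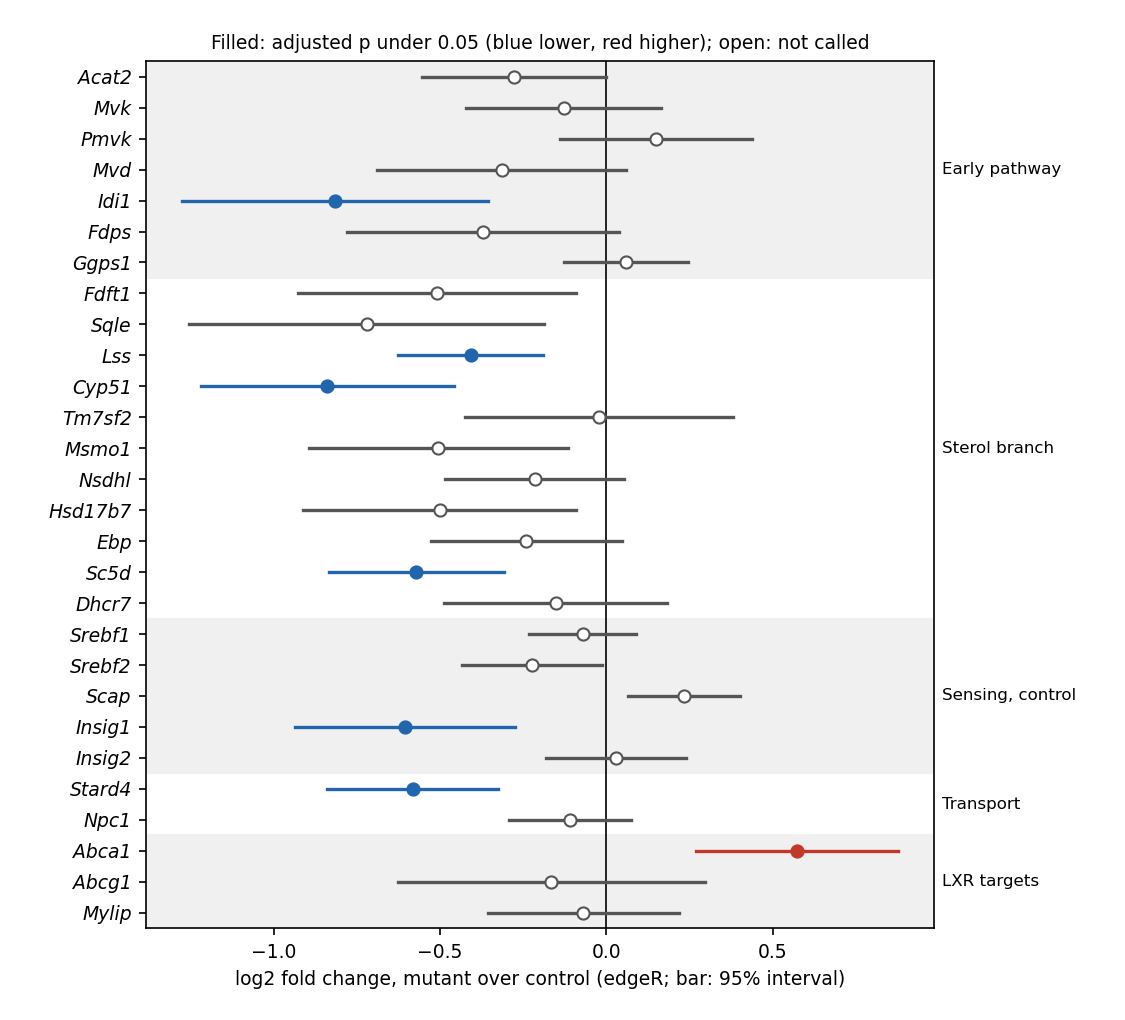
Log2 fold changes of the 28 genes, mutant over control, with 95% intervals from the edgeR fit, grouped by role. Filled symbols mark the 6 genes called lower and Abca1, called higher, and open symbols mark the 21 genes that were not called.

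In the early pathway, which ends in farnesyl and geranylgeranyl diphosphate, 1 of 7 genes fell and 6 were not called (median log2 fold change -0.28). Over all tested genes 9.13% were called lower, so 1 of 7 is not read as a result about this part of the pathway. Idi1, the isomerase that makes dimethylallyl diphosphate, stood at 55.1, 70.1 and 83.4 CPM in control replicates 1 to 3 and at 48.9, 34.2 and 35.5 CPM in mutant replicates 1 to 3. All mutant libraries were below all controls, although mutant replicate 1 came close to control replicate 1. The log2 fold change was -0.82 (95% interval -1.28 to -0.36), 43.2% lower, with an edgeR adjusted p of 0.0310. The call of Idi1 did not hold under the replicate block (adjusted p = 0.113) or when control 2, control 3, mutant 2 or mutant 3 was omitted (0.0671 to 0.113). A stretch of 684 bases of the Idi1 transcript is identical to the pseudogene Gm13502, so its reads are in part uncertain. Fdps, the farnesyl diphosphate synthase, had 58.2, 56.1 and 50.1 CPM in controls and 53.4, 31.5 and 42.2 CPM in mutants. The groups overlapped through mutant replicate 1, and the log2 fold change of -0.37 was not called (edgeR adjusted p = 0.190). Mvd, the decarboxylase that forms isopentenyl diphosphate, and the thiolase Acat2 were not called either, at -0.31 and -0.28 on the log2 scale. Acat2 shares 97.7% of 1477 aligned bases with its neighbour copy Acat3, which makes its counts uncertain. The mevalonate kinase gene Mvk (-0.13), the phosphomevalonate kinase gene Pmvk (0.15) and Ggps1, which makes geranylgeranyl diphosphate for protein prenylation (0.06), were not called, and their groups overlapped.

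The sterol branch begins with squalene, and here all 11 genes had a log2 fold change below 0 (median -0.50). Of these 3 fell and 8 were not called, beside 9.13% of all tested genes called lower. Cyp51, the demethylase that acts on lanosterol, stood at 87.3, 85.7 and 96.6 CPM in controls and at 62.3, 37.8 and 50.7 CPM in mutants. The groups were well apart, and mutant replicate 2 was the lowest. The log2 fold change was -0.84 (95% interval -1.22 to -0.46), 44.1% lower (edgeR adjusted p = 0.0132). Sc5d, the desaturase near the end of the pathway, had 31.6, 37.2 and 40.9 CPM in controls and 28.7, 22.4 and 22.9 CPM in mutants. Its groups did not overlap, and it fell by 0.57 on the log2 scale (95% interval -0.83 to -0.31, edgeR adjusted p = 0.00903). Lss, the cyclase that forms lanosterol, had 29.4, 32.6 and 35.5 CPM in controls and 26.7, 22.9 and 23.9 CPM in mutants. It was lower in every mutant library, by 0.41 on the log2 scale, a smaller difference with a narrow spread (95% interval -0.63 to -0.19, edgeR adjusted p = 0.0162). The call of Sc5d was kept in all 14 alternative analyses. Cyp51 missed the threshold when control 3 or mutant 3 was omitted (adjusted p = 0.0593 and 0.0597), and Lss when control 2, control 3 or mutant 3 was omitted (0.0513 to 0.0701).

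The other 8 genes of the branch were not called. In 4 of them every mutant library was below every control library, which held for 18.6% of all tested genes. Sqle, the epoxidase that oxidises squalene, had 76.7, 82.1 and 81.4 CPM in controls and 64.0, 33.9 and 47.8 CPM in mutants. Controls were tight and mutants spread widely, with no overlap between the groups. Its log2 fold change of -0.72 (95% interval -1.25 to -0.19) was not called by edgeR (adjusted p = 0.0739), but was called in 5 of 14 alternatives. Fdft1, the squalene synthase (-0.51), the methyl oxidase gene Msmo1 (-0.50) and the reductase gene Hsd17b7 (-0.50) also had every mutant library below every control library, with edgeR adjusted p of 0.0763 to 0.0914. For Hsd17b7 the gap was small, 24.2 CPM in mutant replicate 1 against 24.3 CPM in control replicate 1. Ebp, the sterol isomerase (-0.24), Nsdhl, a sterol dehydrogenase (-0.22), and Dhcr7, the last reductase of 1 arm (-0.15), overlapped between groups through mutant replicate 1. Tm7sf2, a sterol reductase, stood at 7.75, 5.79 and 5.83 CPM in controls and at 6.17, 7.61 and 5.39 CPM in mutants. It was level between the groups, with a log2 fold change of -0.02 (95% interval -0.42 to 0.38).

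**Figure D2:**
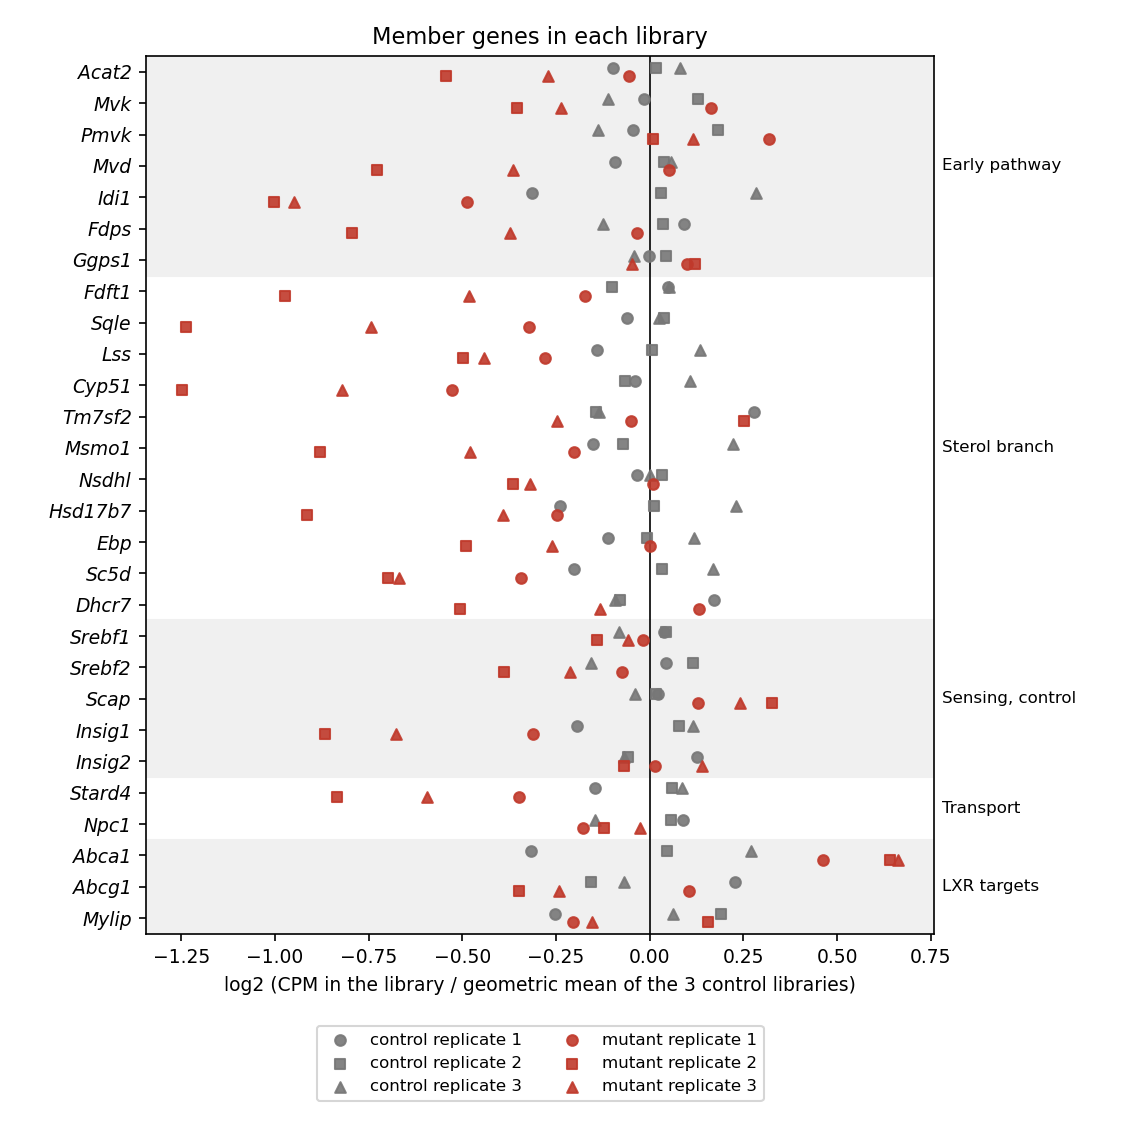
Each gene's CPM in each library relative to the geometric mean of the 3 control libraries, on a log2 scale, grouped by role, with controls in grey, mutants in red, and circle, square and triangle for replicates 1, 2 and 3. Along the sterol branch the red squares (mutant replicate 2) lie farthest to the left in 10 of 11 genes, and Abca1 and Scap are the genes with every red point to the right of every grey one.

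Promoter windows are shown for the members whose window holds a sterol element core (Hmgcs1, Msmo1 and Srebf2). Windows are also shown for the synthesis and control genes called lower that have one, so their shared direction follows from the choice. These 5 were added after their values were seen. The sequences are the 250 bases before the start from RefSeq, build GRCm38.p6, written 5′ to 3′ on the gene's strand. Capitals mark the NF-Y box CCAAT or its reverse complement ATTGG, and the sterol element core TCACNCCA, which SREBP is known to bind, often beside NF-Y and Sp1.
Hmgcs1 (chr13:119690101-119690350, plus strand): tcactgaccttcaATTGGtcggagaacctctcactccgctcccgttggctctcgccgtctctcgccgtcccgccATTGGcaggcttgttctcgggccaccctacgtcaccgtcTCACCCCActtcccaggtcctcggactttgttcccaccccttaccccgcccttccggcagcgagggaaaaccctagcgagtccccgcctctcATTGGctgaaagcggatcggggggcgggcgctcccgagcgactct
Idi1 (chr13:8885356-8885605, plus strand): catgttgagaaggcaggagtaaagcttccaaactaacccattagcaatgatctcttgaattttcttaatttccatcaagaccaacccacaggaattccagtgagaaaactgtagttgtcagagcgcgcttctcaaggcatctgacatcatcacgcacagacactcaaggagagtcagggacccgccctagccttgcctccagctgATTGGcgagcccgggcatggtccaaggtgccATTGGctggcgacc
Lss (chr10:76531355-76531604, plus strand): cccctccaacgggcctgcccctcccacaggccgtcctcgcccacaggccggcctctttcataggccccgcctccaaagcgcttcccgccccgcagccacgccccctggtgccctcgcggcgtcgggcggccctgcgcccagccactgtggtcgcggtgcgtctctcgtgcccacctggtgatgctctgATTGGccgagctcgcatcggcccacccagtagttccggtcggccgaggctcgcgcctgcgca
Cyp51 (chr5:4104698-4104947, minus strand): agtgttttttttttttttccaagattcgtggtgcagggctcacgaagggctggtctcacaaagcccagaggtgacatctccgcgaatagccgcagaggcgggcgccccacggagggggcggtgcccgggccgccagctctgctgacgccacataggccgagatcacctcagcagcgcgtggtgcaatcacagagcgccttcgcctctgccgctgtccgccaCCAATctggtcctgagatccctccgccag
Msmo1 (chr8:64733579-64733828, minus strand): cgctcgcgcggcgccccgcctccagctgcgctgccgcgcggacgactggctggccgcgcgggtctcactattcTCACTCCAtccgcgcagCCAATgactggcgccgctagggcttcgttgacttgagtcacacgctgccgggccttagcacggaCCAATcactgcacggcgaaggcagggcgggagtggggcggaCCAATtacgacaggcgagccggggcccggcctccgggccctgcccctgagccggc
Sc5d (chr9:42264301-42264550, minus strand): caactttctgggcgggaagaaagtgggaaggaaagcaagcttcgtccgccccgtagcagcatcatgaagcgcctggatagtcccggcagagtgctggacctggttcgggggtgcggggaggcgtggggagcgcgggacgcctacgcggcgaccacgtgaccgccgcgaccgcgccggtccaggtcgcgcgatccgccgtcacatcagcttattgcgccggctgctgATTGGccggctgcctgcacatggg
Srebf2 (chr15:82147019-82147268, plus strand): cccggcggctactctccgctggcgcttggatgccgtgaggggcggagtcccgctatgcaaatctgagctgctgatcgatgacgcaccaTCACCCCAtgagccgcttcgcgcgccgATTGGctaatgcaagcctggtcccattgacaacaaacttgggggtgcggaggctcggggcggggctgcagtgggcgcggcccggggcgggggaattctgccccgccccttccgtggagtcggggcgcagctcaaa
Insig1 (chr5:28071162-28071411, plus strand): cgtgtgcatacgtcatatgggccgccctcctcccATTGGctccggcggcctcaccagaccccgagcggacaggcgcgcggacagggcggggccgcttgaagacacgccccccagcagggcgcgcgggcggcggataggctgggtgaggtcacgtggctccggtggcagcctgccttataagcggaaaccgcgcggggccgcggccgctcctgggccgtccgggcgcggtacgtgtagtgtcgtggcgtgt
Each of the 8 windows held at least 1 NF-Y box, and Hmgcs1 and Msmo1 held 3. The core was TCACCCCA in Hmgcs1 and Srebf2 and TCACTCCA in Msmo1. Over all members with a window, 20 of 23 genes held CCAAT on either strand, against 40.1% of 10989 tested genes with a window and 37.5% of all 27025 genes. Among synthesis genes alone it was 15 of 16. The Sp1 box GGGCGG was present in 21 of 23 members, against 63.4% of tested genes. The sterol element core was present in 3 of 23 members, against 4.15% of tested genes, and its longer form TCACNCCAC, which contains the core, in Hmgcs1 alone. The LXR direct repeat, 2 copies of AGGTCA with NNNN between, was in no member's window and in 5 of 32851 windows in all. A match describes these letters only, and these windows leave out more distant elements.

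**Figure D3:**
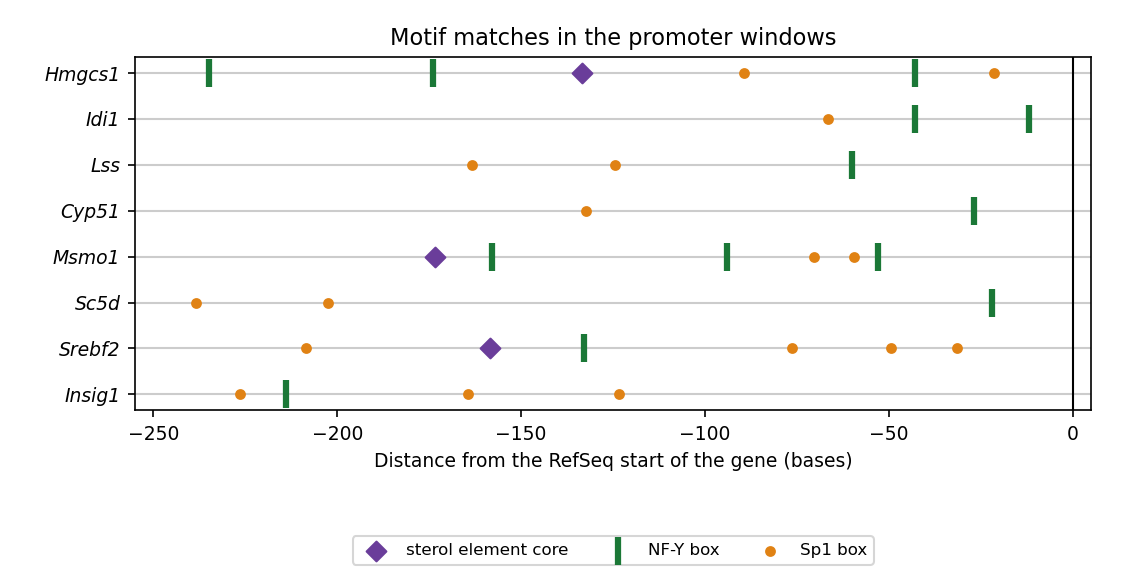
Positions of motif matches, as the distance in bases from the RefSeq start, in the promoter windows of 8 genes. Green bars are NF-Y boxes, orange dots Sp1 boxes and purple diamonds sterol element cores, and a green bar is present in all 8 rows.

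Among the sensing and control genes Insig1 fell, and neither SREBP gene nor Scap was called. Insig1, which holds SCAP in the endoplasmic reticulum and is itself an SREBP target, stood at 105, 127 and 130.3 CPM in controls and at 96.9, 65.9 and 75.2 CPM in mutants. All mutant libraries were below all controls, and mutant replicate 1 was again the nearest to them. Insig1 fell by 0.61 on the log2 scale (95% interval -0.94 to -0.27, edgeR adjusted p = 0.0242), but missed the threshold under the replicate block and when control 2, control 3 or mutant 3 was omitted (adjusted p 0.0668 to 0.0936). Its relative Insig2, which is not driven by SREBP2 in the same way, had 29.4, 25.8 and 25.7 CPM in controls and 27.2, 25.7 and 29.7 CPM in mutants. Its log2 fold change was 0.03 (95% interval -0.18 to 0.24), turning sign without control replicate 2 or 3 or mutant replicate 3. Srebf2, which encodes SREBP2, had 239.7, 252 and 208 CPM in controls and 221, 178 and 201 CPM in mutants. The groups overlapped through mutant replicate 1 and control replicate 3, and the log2 fold change of -0.22 was not called (edgeR adjusted p = 0.127). Srebf1, whose products serve fatty acid and sterol genes, had 89.7, 90.2 and 82.7 CPM in controls and 86.4, 79.4 and 84.0 CPM in mutants, with a log2 fold change of -0.07 (95% interval -0.23 to 0.09). Scap had 64.6, 64.4 and 62.0 CPM in controls and 69.5, 79.8 and 75.2 CPM in mutants. Every mutant library was above every control library, and its log2 fold change of 0.23 (95% interval 0.07 to 0.40) was not called (edgeR adjusted p = 0.0547).

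Of the carriers, Stard4 fell and Npc1 was not called. Stard4, a soluble sterol carrier and SREBP target, stood at 41.6, 47.9 and 48.8 CPM in controls and at 36.1, 25.8 and 30.5 CPM in mutants. The groups were separate, and Stard4 fell by 0.58 on the log2 scale (95% interval -0.84 to -0.32, edgeR adjusted p = 0.00759), a call kept in all 14 alternatives. Npc1, which exports cholesterol from late endosomes and lysosomes, had 69.8, 68.4 and 59.4 CPM in controls and 58.0, 60.4 and 64.5 CPM in mutants. Its groups overlapped, with a log2 fold change of -0.11 (95% interval -0.29 to 0.07).

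The LXR targets did not move as one. Abca1, which loads cellular cholesterol onto apolipoproteins, stood at 60.6, 78.0 and 91.0 CPM in controls and at 104, 118 and 119 CPM in mutants. Every mutant library was above every control library, which held for 19.2% of all tested genes. Abca1 rose by 0.57 on the log2 scale (95% interval 0.27 to 0.88, edgeR adjusted p = 0.0199), but missed the threshold when control 2, mutant 2 or mutant 3 was omitted (adjusted p 0.0543 to 0.0753). Macrophages are a cell type rich in Abca1. The 10 macrophage markers summed to 397, 201 and 275 CPM in control replicates 1 to 3 and to 333, 289.8 and 356 CPM in mutants. None was called, and 7 of the 10 had a log2 fold change above 0. The part of these cells in the Abca1 values was not tested. Abcg1, the efflux transporter that passes cholesterol to lipoproteins, was scarce, at 4.16, 3.19 and 3.39 CPM in controls and 3.83, 2.80 and 3.01 CPM in mutants. The groups overlapped, and the log2 fold change of -0.17 had a wide interval of -0.63 to 0.30. Mylip, a ubiquitin ligase that limits lipoprotein uptake, had 69.6, 94.7 and 86.6 CPM in controls and 72.0, 92.5 and 74.5 CPM in mutants. Both groups covered the same range, with a log2 fold change of -0.07 (95% interval -0.36 to 0.22), which was 0.03 without control replicate 2. Set side by side, the 3 LXR targets had 1 gene called higher and a median log2 fold change of -0.07, and the 20 synthesis and transport genes had 5 called lower and a median of -0.34.

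**Figure D4:**
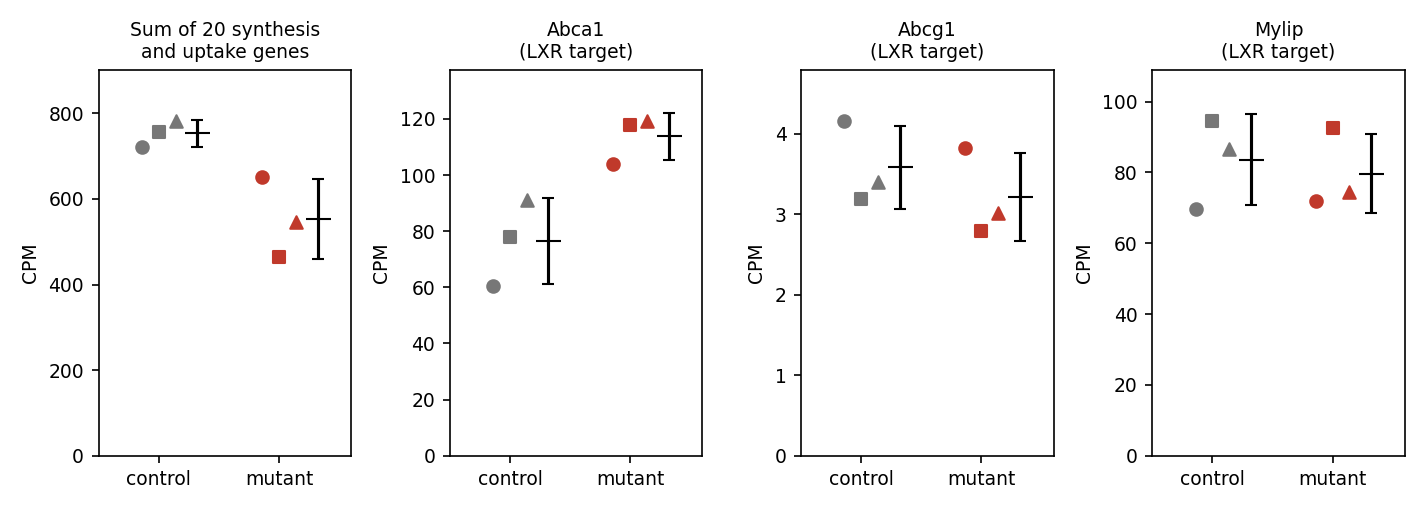
CPM in each library for the sum of the 20 synthesis and transport genes and for Abca1, Abcg1 and Mylip, with circle, square and triangle for replicates 1, 2 and 3 and bars for the mean and SD of 3 libraries. The sum lay between 721 and 783 CPM in controls and between 464 and 651 CPM in mutants, Abca1 was higher in all mutants, and Abcg1 and Mylip overlapped.

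The mutant libraries differed from one another in the depth of the fall. Summed over the 20 synthesis and transport genes, controls held 721, 756 and 783 CPM, and mutant replicates 1 to 3 held 651, 464 and 546 CPM. The median gene stood at 92.4% of the control geometric mean in mutant replicate 1, 65.1% in mutant replicate 2 and 77.4% in mutant replicate 3. Mutant replicate 2 was the lowest mutant library in 17 of the 20 genes and mutant replicate 1 the highest in 17. Both held together, with mutant replicate 3 between, in 17 of 20 genes and in 19.3% of all tested genes. Omitting mutant 1 gave 10 genes called lower, omitting mutant 3 or control 3 gave 2, and omitting control 2 gave 3. Calls over all tested genes changed as well. Those called lower numbered 1372 with every library, 881 without control 2, and 753 to 1500 over the single omissions. The median log2 fold change of the 20 genes moved to -0.18 when mutant 2 was omitted and to -0.51 when mutant 1 was. Mutant replicate 2 was also the library with 592 CPM of adipocyte markers and the lowest sum of melanocyte markers, 119.9 CPM against 222 to 352 CPM in the other libraries, and the part of either in this order was not tested. Proliferation markers summed to 935, 905 and 939 CPM in mutant replicates 1 to 3.

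Of the fatty acid genes under SREBP control, some fell as well. Of 14 tested 4 fell and none rose, with a median log2 fold change of -0.20. Over all tested genes 9.13% were called lower and 8.63% higher. Elovl6, an elongase of saturated fatty acids, stood at 42.7, 51.8 and 43.3 CPM in controls and at 35.6, 32.6 and 32.2 CPM in mutants, and it fell by 0.45 on the log2 scale (edgeR adjusted p = 0.00751). Fasn, the fatty acid synthase, had 248, 259 and 240.4 CPM in controls and 213, 192 and 190.2 CPM in mutants. Acaca, the carboxylase that makes malonyl-CoA, had 86.8, 85.0 and 85.8 CPM in controls and 72.3, 69.2 and 69.5 CPM in mutants. In all of these genes mutant replicate 1 was the highest mutant library. Every mutant library was below every control library, as in 18.6% of all tested genes. The log2 fold changes were -0.33 for Fasn and -0.29 for Acaca (edgeR adjusted p = 0.0122 and 0.0152). Fasn missed the threshold when control 2 or mutant 3 was omitted, and Acaca when mutant 3 was. Acly, which makes cytosolic acetyl-CoA and was named after its values were seen, was the fourth (-0.25), a call lost in 6 of 14 alternatives. Scd2, of the same list and also named after its values were seen, was not called (-0.32, edgeR adjusted p = 0.0715). Its mutant replicates 1 to 3 spread more widely, at 401, 301 and 348 CPM.

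A few genes that act around SREBP and LXR were called, beside 9.13% of all tested genes called lower and 8.63% called higher. Of 10 genes of SREBP processing and sterol-regulated turnover 3 rose and none fell. These were the ubiquitin ligase genes Rnf145 (86.5 ± 4.68 to 105 ± 2.92 CPM, SD, n = 3 per group, log2 fold change 0.29) and Rnf139 (0.28), and Erlin2 (0.26), part of a complex for degradation in the endoplasmic reticulum. Their edgeR adjusted p were 0.0193, 0.0472 and 0.0329, and the call was lost in 3 of 14 alternatives for Rnf145, in 9 for Rnf139 and in 5 for Erlin2. Erlin1, of the same list and named after its values were seen, was not called (-0.26, edgeR adjusted p = 0.0933). Its mutant libraries all lay below all control libraries, which held for 18.6% of all tested genes. The median log2 fold change of the 10 was 0.10. Rises numbered 0 to 3 when 1 library was left out, with 0 when control 2 or mutant 3 was the one omitted. Of 9 tested LXR receptors and further targets 2 rose and 1 fell, with a median log2 fold change of 0.26 and 8 of 9 above 0. Rxrb rose from 50.5 ± 3.50 to 66.1 ± 3.84 CPM by 0.39 on the log2 scale (edgeR adjusted p = 0.00827), and Rxra, which like Rxrb encodes a partner of LXR, by 0.30, a call lost in 2 of 14 alternatives. Pltp, the phospholipid transfer protein gene, fell by 0.63 with control replicate 1 at 56.4 CPM and the other controls at 35.9 and 36.3 CPM. Its call was lost in 5 of 14 alternatives. The LXR genes themselves, Nr1h2 (0.03) and Nr1h3 (0.26), were not called. The targets Apoe, an apolipoprotein gene (0.60, edgeR adjusted p = 0.0599), and Smpdl3a (0.30, 0.125) were not called. Both had every mutant library above every control library, as had 19.2% of all tested genes. For Apoe mutant replicate 1 stood at 375 CPM and the other mutants at 247 and 233 CPM. The targets Lpcat3 (0.05) and Arl4c (0.04) were not called and overlapped between groups. Apart from Rxrb, Rxra and Pltp, the genes of this list were named after their values were seen.

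Cyp27a1 and Ch25h, which make oxysterols, were both called lower. Cyp7b1, of the same list and named after its values were seen, was not called (log2 fold change -0.05), and its groups overlapped. Cyp27a1, the sterol 27-hydroxylase, stood at 16.5, 16.6 and 15.6 CPM in controls and at 11.6, 9.75 and 11.0 CPM in mutants. The groups were well apart, and it fell by 0.59 on the log2 scale (edgeR adjusted p = 0.00603), a call kept in all 14 alternatives. Ch25h, the cholesterol 25-hydroxylase, stood at 11.7 ± 2.23 CPM in controls and 7.64 ± 1.32 CPM in mutants, a log2 fold change of -0.62 with an edgeR adjusted p of 0.0310. It missed the threshold when control 2, control 3, mutant 1 or mutant 3 was omitted. In the list of 17 genes of cholesterol movement, storage and oxysterols, 3 fell and 1 rose (median log2 fold change 0.10). The shares over all tested genes were 9.13% called lower and 8.63% called higher. The third fall was Osbp, an oxysterol-binding lipid carrier, at 106 ± 1.72 and 85.3 ± 1.34 CPM (log2 fold change -0.31), and the rise was Scarb1, a lipoprotein receptor (0.23, named after its values were seen), lost in 10 of 14 alternatives. Of 10 genes of isoprenoid side branches Rabggtb, a subunit of the Rab prenyltransferase, fell (-0.37) and 9 were not called (median -0.11). This 1 of 10 was near the share of 9.13% over all tested genes. Of 6 further genes of synthesis and uptake outside the members 1 rose, none fell and 5 were not called, with a median log2 fold change of -0.19.

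Per kilobase of exons, Insig1 and Srebf2 were the most abundant members in controls, at 39.0 and 32.5 CPM per kilobase. The LXR target Mylip followed at 25.9, and the most abundant enzyme genes were Cyp51 and Idi1 at 20.4 and 19.8 CPM per kilobase, which do not differ beyond their spread. Tm7sf2 at 1.47 and Abcg1 at 0.491 CPM per kilobase were the scarcest. In mutants Cyp51 stood at 11.4, Idi1 at 11.3 and Abca1 at 11.0 CPM per kilobase, against 7.38 for Abca1 in controls. Exon lengths were taken from a later annotation than the authors used.

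**Figure D5:**
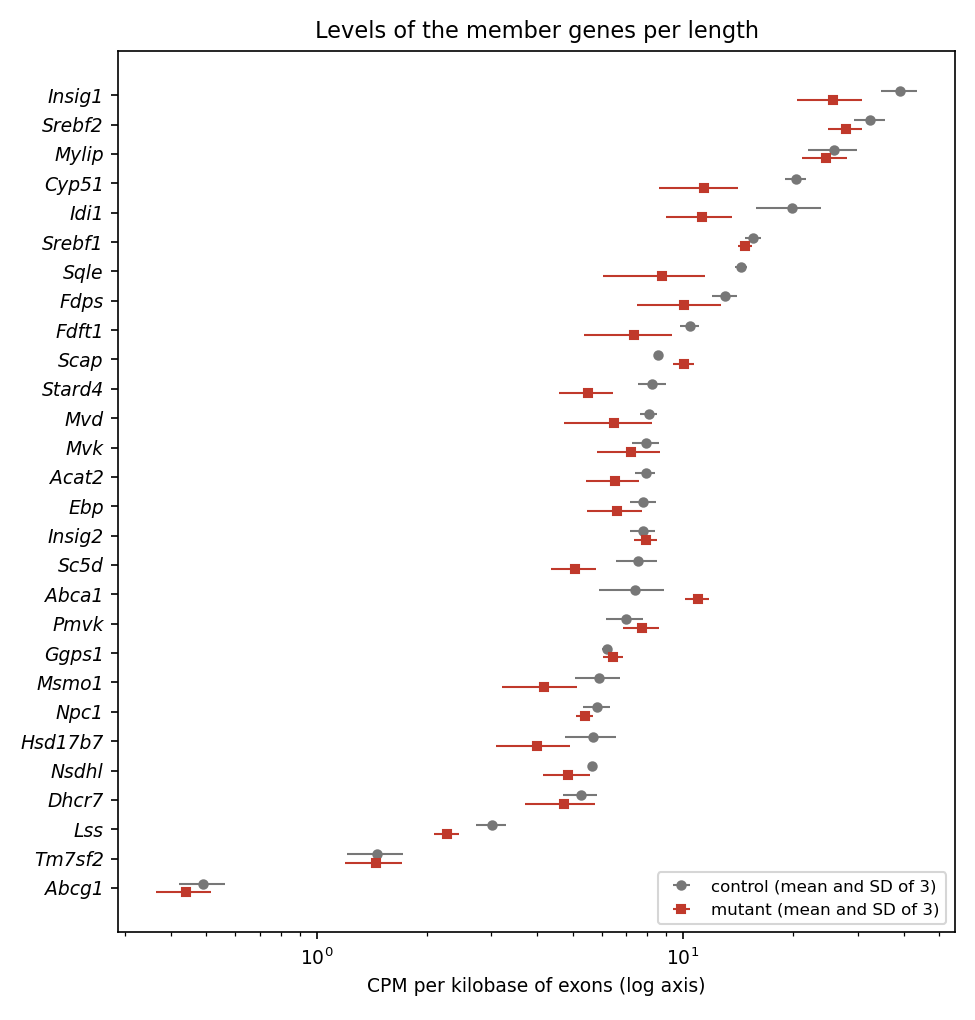
Mean CPM per kilobase of exons of each gene in control (grey) and mutant (red) libraries on a log axis, with the SD of 3 libraries, ordered by the control level. Insig1 and Srebf2 are at the top, Abcg1 is at the bottom, and Abca1 is the gene whose red symbol lies farthest to the right of its grey one.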

How the data were processed

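For each of the 6 libraries the authors deposited raw counts of reads per Ensembl gene. Build mm9 and the tools HTSeq 0.5.3, TopHat2 2.0.4, cutadapt 1.1, DESeq2 and FastQC come from the submitters' processing notes, which give no role for each. No source used here gives the strand setting, so reads of exons shared with an opposite-strand gene (Cyp51 with Akap9, Fdft1 with Ctsb, Srebf1 with Rai1, and in part Lss, Ggps1, Scap and Npc1) could not be told apart. Tm7sf2 shares exon sequence with Vps51 on the same strand, and reads of that sequence could not be told apart at any strand setting. The 5 rows that name no gene, 36.9% to 41.7% of listed reads, were left out of library sizes and tests. Symbols matched 32919 of 37991 rows. Replicates differed beyond counting noise (chi-square per degree of freedom 4.73 to 13.3) and counted as separate samples.

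Counts were filtered with filterByExpr (minimum count 10, minimum total 15), scaled by TMM and fitted in edgeR 4.0.16 under R 4.3.3 (robust quasi-likelihood F test, group as the only term) over all 15035 genes that passed. CPM values use the TMM-scaled library sizes. Alternatives were other scalings, DESeq2 1.42.0, limma-voom 3.58.1, other filters, the replicate block and each library left out. Members and lists were chosen with earlier results of these data known. All members were named, and from each further list up to 3 called genes with the smallest adjusted p, or the most abundant gene where none was called. A gene that this rule names is not reported here. Of the 29 genes 23 had a promoter window of 250 bases in the RefSeq table. No set test was made.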

Additional observations from a re-analysis of the deposited data

How the results depend on the processing

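Over 14 alternatives for each of 28 genes, 347 gene results kept direction and side of the threshold, 17 lost a call, 21 gained one and 7 changed sign, and Sc5d and Stard4 kept their calls in all 14. The changes of sign were in uncalled genes: Tm7sf2 (0.00347 with upper-quartile scaling, 0.122 without control replicate 1, 0.0913 without mutant replicate 3, range -0.167 to 0.122 over single omissions), Insig2 (-0.00192 and -0.00896 omitting control 2 and 3, -0.0300 omitting mutant 3, range -0.0300 to 0.0859) and Mylip (0.0257 omitting control 2, range -0.196 to 0.0257). Synthesis and transport genes called lower numbered 9 with DESeq2 and 8 with limma-voom or no filter, and all members called lower 10 with DESeq2. Members called higher numbered 2 with upper-quartile scaling. With 1 library left out, synthesis and transport genes called lower numbered 2 to 10, LXR targets called higher 0 to 1, all members called lower 2 to 11 and called higher 0 to 1, and all genes called lower 753 to 1500 and higher 658 to 1199. In the further lists those ranges were 1 to 5 for fatty acid genes called lower, 0 to 1 lower and 0 to 3 higher for SREBP processing, 0 to 1 lower and 1 to 3 higher for LXR receptors and targets, 0 to 1 higher for cholesterol movement, 0 to 1 higher for isoprenoid branches, and 0 to 3 lower and 0 to 1 higher for the 6 further synthesis and uptake genes. Of those 6, 1 was called lower with RLE factors, total counts or limma-voom, 2 with no filter or the replicate block and 3 with DESeq2, and 0 higher with limma-voom. Rises in cholesterol movement numbered 0 with RLE factors or DESeq2 and 2 with upper-quartile scaling or no filter, rises in SREBP processing 1 with DESeq2, and falls among LXR receptors and targets 0 with upper-quartile scaling. The cause of these changes was not tested. The groups share replicate numbers only, taken here from the sample titles, which for the 3 mutant libraries differ from the numbers their deposited counts carry: deviations of same-numbered libraries correlated at 0.117, -0.0293 and -0.0866, and the replicate block gave 6 synthesis and transport genes lower and 1439 lower and 1328 higher over all genes. With 3 mice per group, the intervals limit what can be called.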
